A study of Mus musculus with 12 samples.

Results

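Secreted BMP antagonists, the membrane pseudoreceptor gene Bambi and the Msx homeobox genes were followed across 12 total RNA libraries of mouse embryonic stem cells. The set is 7 genes of 39179 counted: Fst, Grem1, Chrd, Nog, Bambi, Msx1 and Msx2. They were chosen by symbol, and each matched 1 row of the deposited tables.

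The series has 2 experiments. The reporter experiment used BRE-GFP cells, in which a BMP response element drives GFP, on a mixed CBA and C57Bl/6 background. The medium held fetal calf serum (FCS) and Lif, the cells grew on feeders, and they were sorted by SSEA1, a surface antigen of undifferentiated cells, and by GFP. The groups are BRE-negative (n = 3) and BRE-positive (n = 3), collected as pairs at 3 times. The deletion experiment used cells on a mixed CD-1, 129/Ola and C57Bl/6 background, grown on gelatin with Lif and the 2i inhibitors. Its groups are Smad1/5 fl/fl (FL, n = 2), with floxed alleles of the BMP transducers Smad1 and Smad5, and Smad1/5 -/- (KO, n = 4). The 6 libraries of the deletion experiment come from 2 parental lines, each with 1 FL and 2 KO samples, but the labels do not say which library belongs to which line. KO replicates 1 and 2 were more alike (median chi-square per gene 2.49), as were replicates 3 and 4 (1.23), than either pair was to the other (4.04 to 4.43).

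BMP ligands bind receptor complexes at the cell surface, which phosphorylate SMAD1, SMAD5 and SMAD9. Noggin, chordin, gremlin 1 and follistatin are secreted proteins that bind ligands and keep them from their receptors. BAMBI is a transmembrane protein that resembles a type I receptor but lacks the kinase domain, and several antagonists are themselves induced by the signal they limit. MSX1 and MSX2 are homeodomain transcription factors that follow BMP signals in many embryonic tissues. In serum cultures of mouse embryonic stem cells, BMP acts together with LIF to hold the undifferentiated state.

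Library totals ran from 25862573 to 37319846 counts. All 8 embryonic stem cell markers had counts in every library, with a summed level of 4050 to 5140 CPM (counts scaled to library size, with the sizes adjusted by TMM over the 12 libraries). The targeted genes do not check the labels, because the sources used here do not give the deleted part of each. Smad1 had 643 and 665 counts in FL and 373 to 619 in KO (log2 fold change -0.36 ± 0.14, SE, edgeR adjusted p = 0.187), and Smad5 had 1136 and 1153 against 880 to 1176 (-0.09 ± 0.13, adjusted p = 0.719).

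The genes are single loci on separate chromosomes except for Fst and Msx2, which share chromosome 13. In GENCODE M21 coordinates (mm10), Fst lies at chr13:114452290-114458951 and Msx2 at chr13:53466884-53473074. Msx1 lies at chr5:37820485-37824583, Grem1 at chr2:113746164-113758646 and Nog at chr11:89300638-89302332, all on the minus strand. Chrd lies at chr16:20733127-20742384 on the plus strand. Nog is an intronless gene with 1 exon block, whereas Chrd has 14. Exons of Chrd overlap 239 bases of Thpo on the opposite strand, which had 8 to 39 counts per library, and exons of Fst overlap 115 bases of the antisense gene Gm47040. The strand setting of the counting is not given, so reads in these overlaps cannot be assigned to 1 strand.

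Sequences just before the transcription start were read for the genes listed in the RefSeq promoter table (GRCm38.p6), because BMP-activated SMADs are known to bind the GC-rich letters GGCGCC and GGAGCC. Of the 7 genes, Grem1, Msx1, Msx2 and Chrd were matched and are described. Both motifs were searched on both strands in the 250 bases before the start, and the capitals below mark the matches. GGCGCC is its own reverse complement, GGAGCC reads GGCTCC on the other strand, and the motifs do not overlap in these windows. GGCGCC was present in 9.59% and GGAGCC in 26% of all 32851 promoter windows of this length. The Msx2 line is limited to the 27 bases that hold both of its matches, 33 to 7 bases before the RefSeq start (chr13:53472787-53472813, minus strand), because GENCODE M21 counts this stretch as exon. The full 250-base Msx2 window (chr13:53472781-53473030) also lies inside the GENCODE gene, so by that annotation it is not sequence before the start. The Msx1 window (chr5:37824586-37824835, minus strand) is shown as its paralog, and the Grem1 (chr2:113758649-113758898, minus strand) and Chrd (chr16:20732877-20733126, plus strand) windows because these antagonists differed between the experiments.
Msx2: GGCTCCcagcgcgcccctgccGGCTCC
Msx1: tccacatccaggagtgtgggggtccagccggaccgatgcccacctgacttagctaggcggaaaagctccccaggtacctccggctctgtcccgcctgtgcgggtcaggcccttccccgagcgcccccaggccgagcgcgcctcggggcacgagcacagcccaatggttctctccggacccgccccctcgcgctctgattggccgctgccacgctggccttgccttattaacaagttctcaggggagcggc
Grem1: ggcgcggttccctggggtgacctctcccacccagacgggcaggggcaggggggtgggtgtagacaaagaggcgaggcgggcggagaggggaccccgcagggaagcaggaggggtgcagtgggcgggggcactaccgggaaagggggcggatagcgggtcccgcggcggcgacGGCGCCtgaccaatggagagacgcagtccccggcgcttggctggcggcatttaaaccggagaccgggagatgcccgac
Chrd: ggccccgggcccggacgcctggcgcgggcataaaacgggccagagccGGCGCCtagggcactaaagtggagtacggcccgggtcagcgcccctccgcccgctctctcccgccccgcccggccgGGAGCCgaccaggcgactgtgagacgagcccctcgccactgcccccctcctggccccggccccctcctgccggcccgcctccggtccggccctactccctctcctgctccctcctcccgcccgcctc
The full Msx2 window holds 2 matches to GGAGCC and 0 to GGCGCC, and the Msx1 window holds neither. Grem1 has 1 GGCGCC, 78 bases before the start. Chrd has 1 GGCGCC and 1 GGAGCC, 203 and 127 bases before the start. The windows are 61.6% (Msx2), 68% (Msx1), 72% (Grem1) and 78% (Chrd) G and C. A match is a description of these letters and not a bound site.

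Levels between genes were compared on the deposited TPM values, which are per length. Bambi had the highest TPM of the 7 genes in every group, followed by Fst. In BRE-negative cells Bambi stood at 11.2 ± 2.17 TPM and Fst at 7.54 ± 3.2 (SD, n = 3), and their ranges overlapped. The same held in BRE-positive cells, at 10.7 ± 2.45 and 9.24 ± 4.41 TPM (SD, n = 3). In FL cells the ranges were apart, with Bambi at 5.38 ± 0.246 and Fst at 1.46 ± 0.102 TPM (SD, n = 2). In KO cells they were apart as well, at 6.75 ± 0.385 and 4.49 ± 1 TPM (SD, n = 4). Grem1 and Chrd came next in the reporter groups, between 1.17 and 1.46 TPM on average. Nog, Msx1 and Msx2 had group means of 0.547 TPM or less throughout. Grem1 was the lowest of the 7 in FL (0.103 ± 0.0356 TPM, SD, n = 2) and in KO (0.0844 ± 0.0814 TPM, SD, n = 4). Its range lay below that of the other genes in FL. In KO it overlapped those of Msx2, Msx1 and Chrd, through KO replicate 4 at 0.203 TPM on 8 counts. The deposited TPM holds an added count of 1 per gene, so low values are raised. Grem1 at 0 counts in KO replicate 3 is listed at 0.0186 TPM.

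**Figure D1:**
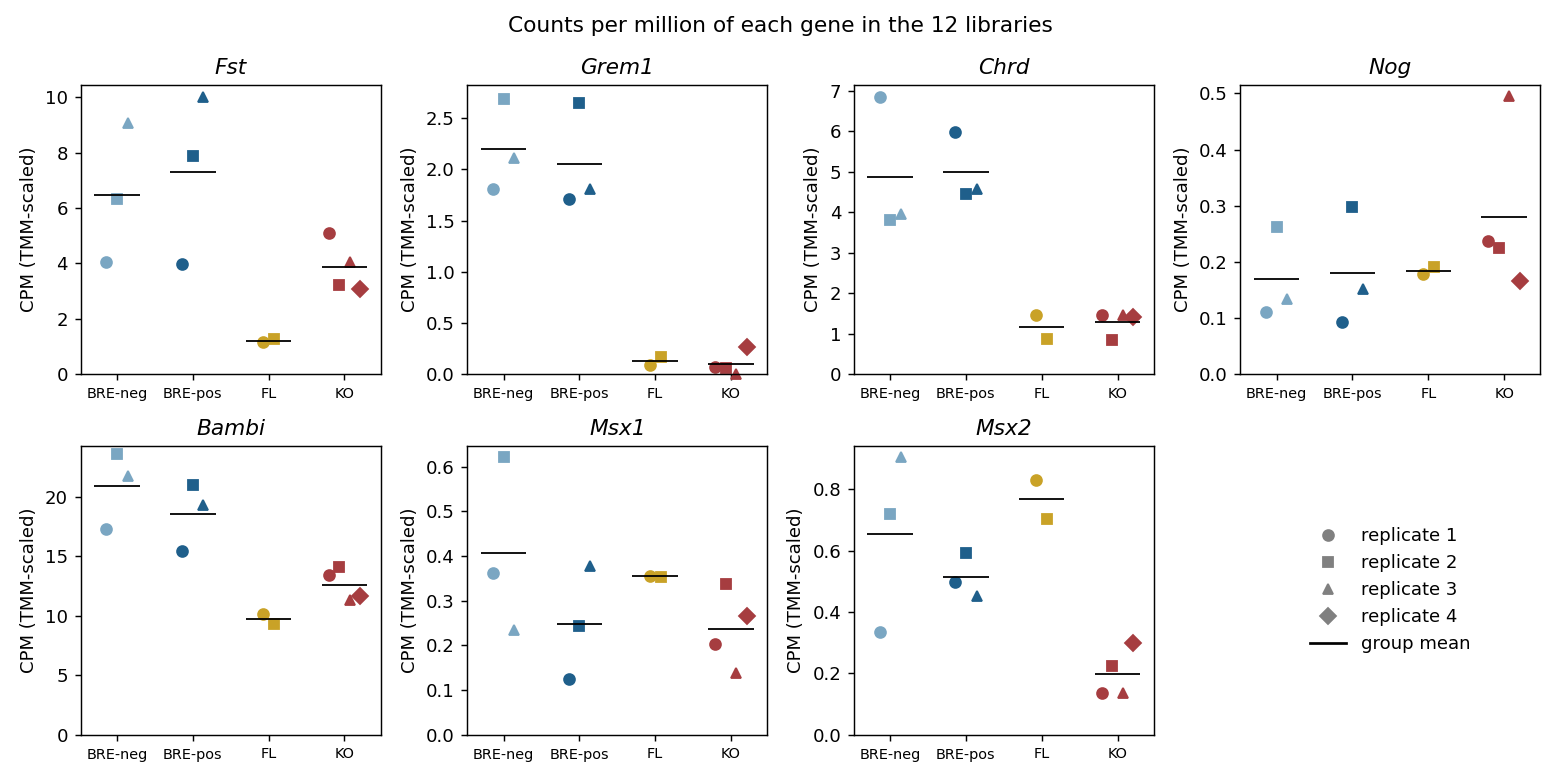
CPM (vertical axis, linear, separate scale per gene) of the 7 genes in each library, grouped as BRE-negative, BRE-positive, FL and KO. Symbols give the replicate number and horizontal lines the group mean. Fst lies between 1.16 and 1.25 CPM in FL and between 3.08 and 5.08 in KO, and Msx2 between 0.705 and 0.83 in FL and between 0.136 and 0.298 in KO.

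The deletion comparison, which pools both parental lines, asked whether deletion of Smad1 and Smad5 changed these genes in 2i and LIF. The fit had no term for the line, because the labels do not give it per library. It took all libraries as independent, although KO samples of the same line may not be. Its p-values therefore do not measure the spread between lines. Fst rose and Msx2 fell in KO, while Bambi, Chrd and Msx1 were not called. Of 15933 genes tested by edgeR's quasi-likelihood method with Benjamini-Hochberg adjustment, 5.03% were called, 1.85% as higher and 3.18% as lower. Of the 7 genes, 5 had enough counts to be tested and 2 were called, 1 in each direction. Grem1 and Nog were below the count filter. In bulk RNA a change in the number of expressing cells and a change in RNA per cell cannot be told apart.

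Fst, whose product follistatin binds activins with high affinity and BMPs with lower affinity, had 39 and 46 counts in the FL libraries. In KO replicates 1 to 4 it had 150, 115, 147 and 93 counts. On the CPM scale the FL values were 1.16 and 1.25, against 5.08, 3.23, 4.04 and 3.08 in KO. The groups did not overlap, which was also true of 34.7% of all genes tested. The mean level of Fst rose 3.2-fold, from 1.2 ± 0.0647 CPM (SD, n = 2) to 3.86 ± 0.921 CPM (SD, n = 4) (log2 fold change 1.68 ± 0.27, SE, edgeR adjusted p = 0.019). The log2 fold change stayed between 1.52 and 1.76 in the 6 fits that left out 1 library, but the adjusted p exceeded the threshold without FL replicate 1 (0.169), FL replicate 2 (0.0976) or KO replicate 3 (0.0559). On the log2 scale of the deposited TPM with 1 added, limma gave 1.14 and an adjusted p = 0.0567.

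The FL libraries held 28 and 26 counts of Msx2, and KO replicates 1 to 4 held 4, 8, 5 and 9. In CPM this was 0.83 and 0.705 CPM in FL and 0.136, 0.225, 0.138 and 0.298 CPM in KO. All 4 KO libraries were below both FL libraries, and 34.7% of all genes tested likewise did not overlap between the groups. Msx2 thus fell from 0.768 ± 0.0883 CPM (SD, n = 2) to 0.199 ± 0.0778 CPM (SD, n = 4), 3.82-fold (log2 fold change -1.93 ± 0.39, SE, edgeR adjusted p = 0.0363). The direction held in each of the 6 fits that left out 1 library (-2.19 to -1.79), and in none of them did the adjusted p stay under the threshold (0.0531 to 0.275).

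Msx1, the paralog with overlapping roles in neural crest and limb, was lower in KO by a smaller amount that the test did not separate from the spread. Its counts were 12 and 13 in FL and 6, 12, 5 and 8 in KO. These were 0.356 and 0.353 CPM in FL against 0.203, 0.337, 0.138 and 0.265 CPM in KO. The highest KO library lay just under the lower FL library, and 34.7% of all genes tested also had no overlap. The log2 fold change was -0.58 ± 0.44 (SE, edgeR adjusted p = 0.469), and the interval of ± 2 SE ran from -1.46 to 0.30.

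Bambi, on the plus strand at chr18:3507923-3516404, had 10.2 and 9.33 CPM in the FL libraries, and KO replicates 1 to 4 had 13.4, 14.1, 11.3 and 11.7 CPM. The KO libraries were all above the FL libraries, by a margin that the test did not call (1.29-fold, log2 fold change 0.37 ± 0.14, SE, edgeR adjusted p = 0.164, ± 2 SE from 0.09 to 0.64). A lack of overlap between FL and KO was found for 34.7% of all genes tested. Chrd overlapped between the groups, at 1.45 and 0.868 CPM in FL and 1.46, 0.842, 1.46 and 1.42 CPM in KO (log2 fold change 0.16 ± 0.34, SE, edgeR adjusted p = 0.816). Its ± 2 SE interval, from -0.51 to 0.84, leaves room for changes in either direction.

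Nog and Grem1 were near the limit of detection. Nog counts were 6 and 7 in FL and 7, 8, 18 and 5 in KO, with KO replicate 3 above the rest. Without the count filter its log2 fold change was 0.61 ± 0.59 (SE, edgeR adjusted p = 0.654). Grem1 counts were 3 and 6 in FL and 2, 2, 0 and 8 in KO. In KO replicate 3, the count of 0 allows up to 0.0825 CPM, the level of 3 counts, a limit that covers counting error only. The Grem1 libraries overlapped (log2 fold change without the filter -0.44 ± 0.99, SE, edgeR adjusted p = 0.856). Counts this low leave little room to see a fall or a small change at this depth.

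**Figure D2:**
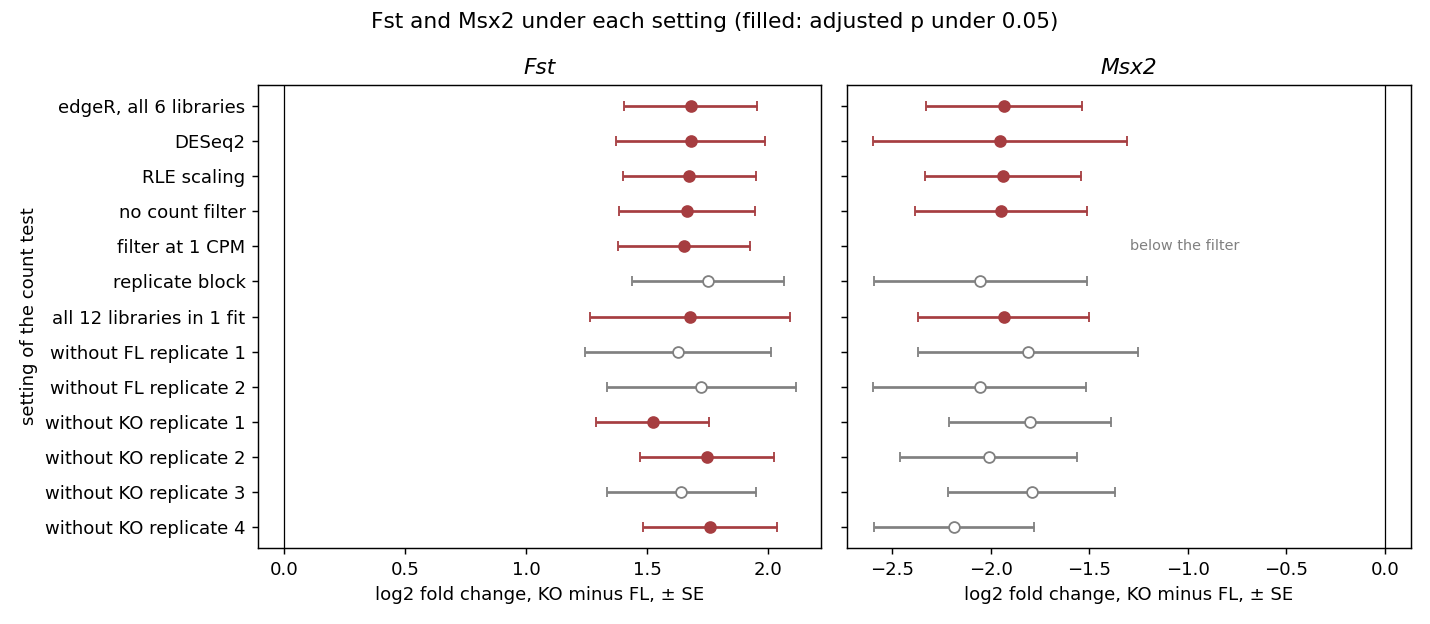
Log2 fold change of Fst (left) and Msx2 (right) between KO and FL (horizontal axis, with SE) under each setting of the count test (vertical axis). Filled points have an adjusted p under 0.05. Fst stays between 1.52 and 1.76 and Msx2 between -2.19 and -1.79 when 1 library is left out, while the calls change.

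Other BMP pathway genes were counted in KO from lists, beside the 5.03% called over all genes. Of 26 listed extracellular antagonists and modulators 11 were tested, with 1 higher (Fst) and 1 lower (Fstl3). The median log2 fold change was -0.34, beside 0.01 over all genes, and 3 of the 11 values were positive. Fstl3, a follistatin-like protein that also binds activins, fell from 2.22 ± 1.1 CPM (SD, n = 2) to 0.692 ± 0.211 CPM (SD, n = 4), and its log2 fold change was -1.66 ± 0.37 (SE, edgeR adjusted p = 0.0468). Fstl3 lost its call in each of the 6 fits with 1 library left out, and without FL replicate 1 its log2 fold change was -1.04.

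Of 31 BMP and activin ligands and receptors 19 were tested, with 1 higher and 1 lower and a median of -0.05. Inhbb, the activin beta-B subunit that follistatin binds, fell 4.21-fold, from 19.6 ± 6.48 CPM (SD, n = 2) to 4.64 ± 1.24 CPM (SD, n = 4). Its log2 fold change was -2.07 ± 0.25 (SE, edgeR adjusted p = 0.00981), and -1.69 with adjusted p = 0.0799 without FL replicate 1. Bmp4, the ligand most studied in these cells, rose from 14.1 ± 0.984 CPM (SD, n = 2) to 20.4 ± 2.01 CPM (SD, n = 4), with an edgeR adjusted p = 0.0489. That call was kept in 1 of 6 fits with 1 library left out, the one without KO replicate 1.

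Of 21 BMP-SMAD target and feedback genes 15 were tested, with 2 higher (Fst and Id3) and 2 lower (Msx2 and Dusp9). Their median was -0.21. Id3, a dominant-negative helix-loop-helix factor, was 1.86 ± 0.43 higher on the log2 scale (SE, edgeR adjusted p = 0.0489), with the call kept in 1 of 6 fits that left out 1 library. Dusp9, a MAP kinase phosphatase, had -1.85 ± 0.25 (SE, edgeR adjusted p = 0.0115), and -1.26 with adjusted p = 0.0631 without FL replicate 1. The members of this list were picked with earlier results of these data known, so the counts are a description. Of 15 Msx, Dlx and related homeobox genes 3 were tested, and all had negative values: Msx2, Msx1 and Barx1 (-0.72 ± 0.45, SE, edgeR adjusted p = 0.375).

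Marker genes of other cell types were also compared between FL and KO. The 7 trophectoderm markers summed to 77.4 and 93.4 CPM in FL and 46.8 to 72 CPM in KO, with 0 of 4 tested markers called. The 10 primitive endoderm markers overlapped, at 78.4 and 122 CPM in FL and 80.8 to 120 CPM in KO. The 22 feeder fibroblast markers summed to 21.2 and 25.7 CPM in FL and 15.7 to 18 CPM in KO, with Loxl1 lower. Postn, Lum, Twist2, Fap and S100a4 were at 0 counts in all 4 KO libraries. Of the embryonic stem cell markers Nanog was lower (1.52-fold). The 8 mesoderm markers summed to 7.5 and 6 CPM in FL and 4.54 to 5.95 CPM in KO, with 0 of 4 tested markers called and Mesp1 at 0 in both FL libraries. The part of these markers in the values of Fst and Msx2 was not tested.

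The reporter comparison asked whether cells with an active BMP reporter differ in these genes from the reporter-negative cells collected with them. None of the 6 tested genes passed edgeR's test with the pair as a block, where 2.97% of 15435 genes were called. Of the 6, Bambi alone had an unadjusted p under 0.05, as had 2817 of the 15435 genes. The other edgeR and limma settings that were run called 0 as well. DESeq2 gave an adjusted p to 1 of the 6 genes, Bambi (0.512), and did not call it.

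Bambi was lower in the BRE-positive library of every pair, as was true of direction in 3 of 3 pairs for 40.3% of all genes. The BRE-negative libraries of pairs 1 to 3 had 17.3, 23.6 and 21.8 CPM and the BRE-positive libraries 15.5, 21 and 19.3 CPM. The difference within pairs was -0.16, -0.17 and -0.18 on the log2 scale. The fitted log2 fold change was -0.16 ± 0.07 (SE), with an edgeR adjusted p = 0.266. Pair 1 was the lowest in both fractions, and its distance from the other pairs was larger than the differences within pairs.

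Fst varied more between collections than between fractions. It stood at 4.04, 6.32 and 9.07 CPM in BRE-negative and at 3.97, 7.88 and 10 CPM in BRE-positive cells of pairs 1 to 3. Pair 1 was the lowest in both fractions, and the BRE-positive library was higher in 2 of 3 pairs (log2 fold change 0.17 ± 0.11, SE, edgeR adjusted p = 0.447, ± 2 SE from -0.05 to 0.39). Chrd, a large antagonist cleaved by BMP1 and tolloid proteases, went the other way between collections. It was 6.85, 3.8 and 3.95 CPM in BRE-negative and 5.99, 4.45 and 4.57 CPM in BRE-positive cells, with pair 1 the highest in both fractions (log2 fold change 0.07 ± 0.13, SE, edgeR adjusted p = 0.817).

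Grem1, an antagonist of the DAN family, stood at 1.81, 2.69 and 2.11 CPM in BRE-negative and at 1.71, 2.65 and 1.81 CPM in BRE-positive cells. It was slightly lower in the BRE-positive library of each pair (log2 fold change -0.09 ± 0.17, SE, edgeR adjusted p = 0.834), and the interval of ± 2 SE ran from -0.43 to 0.25. For 40.3% of all genes the 3 pairs likewise shared a direction. The summed feeder fibroblast markers were 146, 244 and 253 CPM in BRE-negative and 105, 215 and 204 CPM in BRE-positive cells, also lower in each BRE-positive library. Of 20 tested feeder markers 5 were lower, among them Acta2 (2.18-fold), and 0 higher, beside 1.02% of all genes called lower and 1.96% higher. Pair 1 was the lowest for the feeder sum and for Grem1 alike, as it was for Fst and Bambi. Bambi was also lower in each BRE-positive library. In BRE-negative cells the feeder sum was highest in pair 3 and Grem1 in pair 2, whereas in BRE-positive cells both were highest in pair 2. The part of feeder RNA in the Grem1 level was not tested.

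The Msx genes had few counts. Msx2 was 0.334, 0.721 and 0.904 CPM in BRE-negative and 0.497, 0.594 and 0.453 CPM in BRE-positive cells, and the pairs did not share a direction (log2 fold change -0.27 ± 0.35, SE, edgeR adjusted p = 0.742). Msx1 was 0.362, 0.622 and 0.234 CPM in BRE-negative and 0.124, 0.243 and 0.378 CPM in BRE-positive cells. It was lower in pairs 1 and 2 and higher in pair 3 (log2 fold change -0.75 ± 0.48, SE, edgeR adjusted p = 0.445), with an interval of ± 2 SE from -1.72 to 0.21. The value was -0.51 without pair 1, -0.33 without pair 2 and -1.39 without pair 3. Nog had 4, 8 and 4 counts in BRE-negative and 3, 11 and 4 in BRE-positive cells and was below the filter.

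The pathway lists were also counted between the fractions, beside the 2.97% called over all genes. No tested gene was called among 14 extracellular antagonists and modulators, 23 ligands and receptors, 15 target and feedback genes and 6 Msx, Dlx and related homeobox genes.

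The last comparison set the reporter line in serum on feeders against the FL line in 2i on gelatin, with the counts of both fractions summed per collection (3 sums against 2 FL libraries). The cell line, strain, medium, feeder cells and sorting all differ between these groups and cannot be told apart, and the FL libraries are the same as in the KO comparison. Grem1, Fst, Chrd and Bambi were higher in the reporter line, and Nog, Msx1 and Msx2 did not pass the test. This comparison called 48.5% of 17552 genes, 23.8% as higher and 24.7% as lower, and the 4 of 7 called here (all higher) are to be read against that background.

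Grem1 had the largest difference of the 7. The mean of the 2 fractions was 1.76, 2.67 and 1.96 CPM in collections 1 to 3, against 0.089 and 0.163 CPM in FL. The groups did not overlap, as for 69.4% of all genes. The fitted difference was 16.5-fold (log2 fold change 4.05 ± 0.44, SE, edgeR adjusted p = 0.000249), resting on 3 and 6 counts in FL, and it ran from 3.69 to 4.56 with 1 library left out. Of the feeder fibroblast markers 20 of 21 tested were higher and 0 lower, beside 23.8% of all genes called higher and 24.7% lower. Their sum was 105 to 253 CPM in the reporter libraries and 21.2 and 25.7 CPM in FL, where only Fap of the 22 was at 0 in both libraries. Grem1 is expressed by fibroblasts in many tissues, and the part of feeder RNA in its level was not tested.

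Fst stood at 4.01, 7.1 and 9.54 CPM in the collections and at 1.16 and 1.25 CPM in FL, 5.74-fold apart (log2 fold change 2.52 ± 0.39, SE, edgeR adjusted p = 0.0013). Chrd stood at 6.42, 4.13 and 4.26 CPM against 1.45 and 0.868 CPM, 4.29-fold apart (2.10 ± 0.34, SE, edgeR adjusted p = 0.00151). Bambi stood at 16.4, 22.3 and 20.5 CPM against 10.2 and 9.33 CPM, 2.03-fold apart (1.02 ± 0.17, SE, edgeR adjusted p = 0.00172). For all 4 genes the collections lay above both FL libraries, and the calls held in each of the 5 fits that left out a collection or an FL library and with either fraction alone. Collections and FL libraries did not overlap for 69.4% of all genes. Of the 10 primitive endoderm markers 7 were higher and 0 lower, beside 23.8% of all genes called higher and 24.7% lower. Their sum was 222 to 290 CPM in the reporter libraries and 122 and 78.4 CPM in FL. Most of it came from Lama1, Lamb1, Col4a1 and Col4a2, with BRE-negative means of 84.3, 105, 45.5 and 15.5 CPM. Gata6, Sox7 and Dab2 were among the higher markers, and Gata4, Sox17 and Foxa2 were not called (edgeR adjusted p = 0.671, 0.174 and 0.786). The part of feeder and primitive endoderm RNA in the levels of these 4 genes was not tested.

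Msx2 was 0.416, 0.657 and 0.679 CPM in the collections, below the 0.83 and 0.705 CPM of FL, a difference the test did not call (log2 fold change -0.39 ± 0.37, SE, edgeR adjusted p = 0.415). Groups were apart in this way for 69.4% of all genes. Msx1 (-0.13 ± 0.43, SE) and Nog (-0.06 ± 0.60, SE) overlapped between the groups, with edgeR adjusted p-values of 0.821 and 0.945. Across the 4 groups, the order of the Msx2 means was FL, BRE-negative, BRE-positive and KO, and only the step to KO separated neighbouring ranges. For Fst the order was BRE-positive, BRE-negative, KO and FL. Its neighbouring ranges overlapped except between KO and FL. For Msx1 and Nog every pair of neighbours overlapped.

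**Figure D3:**
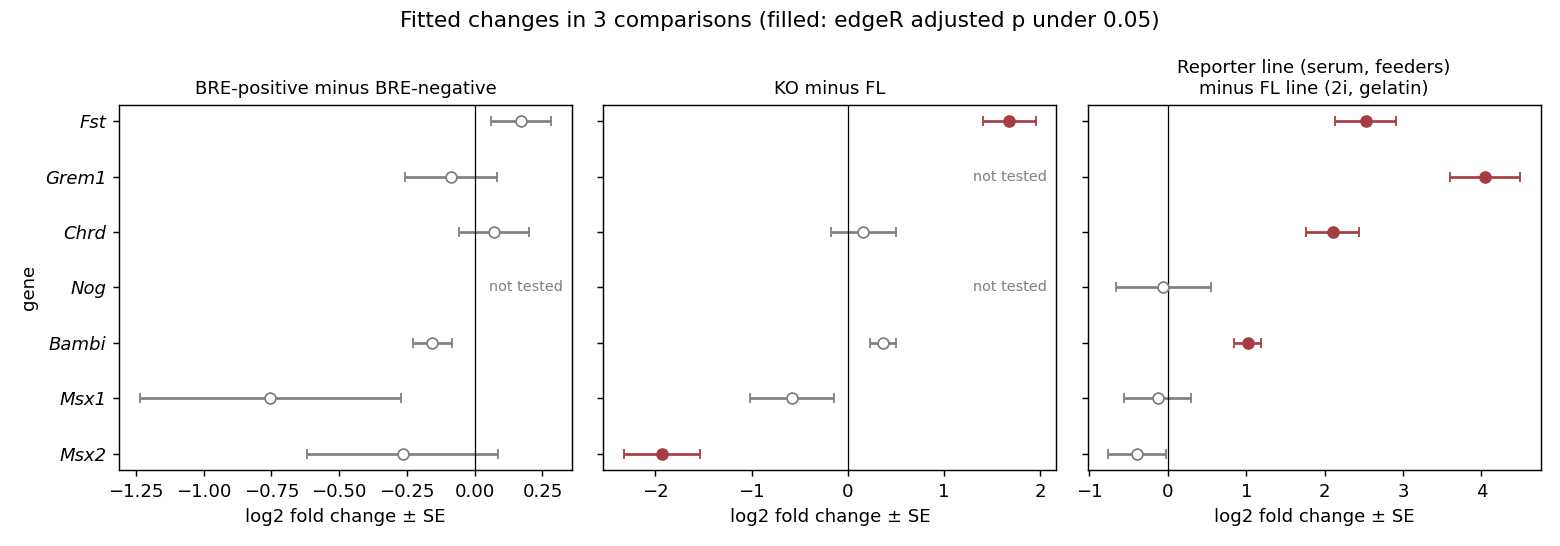
Fitted log2 fold change with SE (horizontal axis, scale differs by panel) of each gene (vertical axis) in the reporter, KO and culture comparisons. Filled points have an edgeR adjusted p under 0.05: none of 6 in the first panel, Fst and Msx2 in the second, and Grem1, Fst, Chrd and Bambi in the third.

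Other genes of the pathway were counted in the same comparison, beside the 48.5% called over all genes. Of 15 tested extracellular antagonists and modulators 9 were higher and 1 lower, with a median of 1.62 beside -0.0013 over all genes. The chordin-cleaving protease gene Bmp1 was 10.4-fold higher and the DAN-family antagonist gene Nbl1 10.5-fold, on 3 and 5 counts in FL. Fstl1, a follistatin-like gene, was 3.36-fold higher and the tolloid-like gene Tll1 3.07-fold (edgeR adjusted p from 7.75e-05 to 0.00684). Kcp, which enhances BMP binding to its receptor, was 2.14-fold lower (edgeR adjusted p = 0.0108). Without FL replicate 2, Tll1 had an adjusted p = 0.0523, and without FL replicate 1, Kcp had 0.105.

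**Figure D4:**
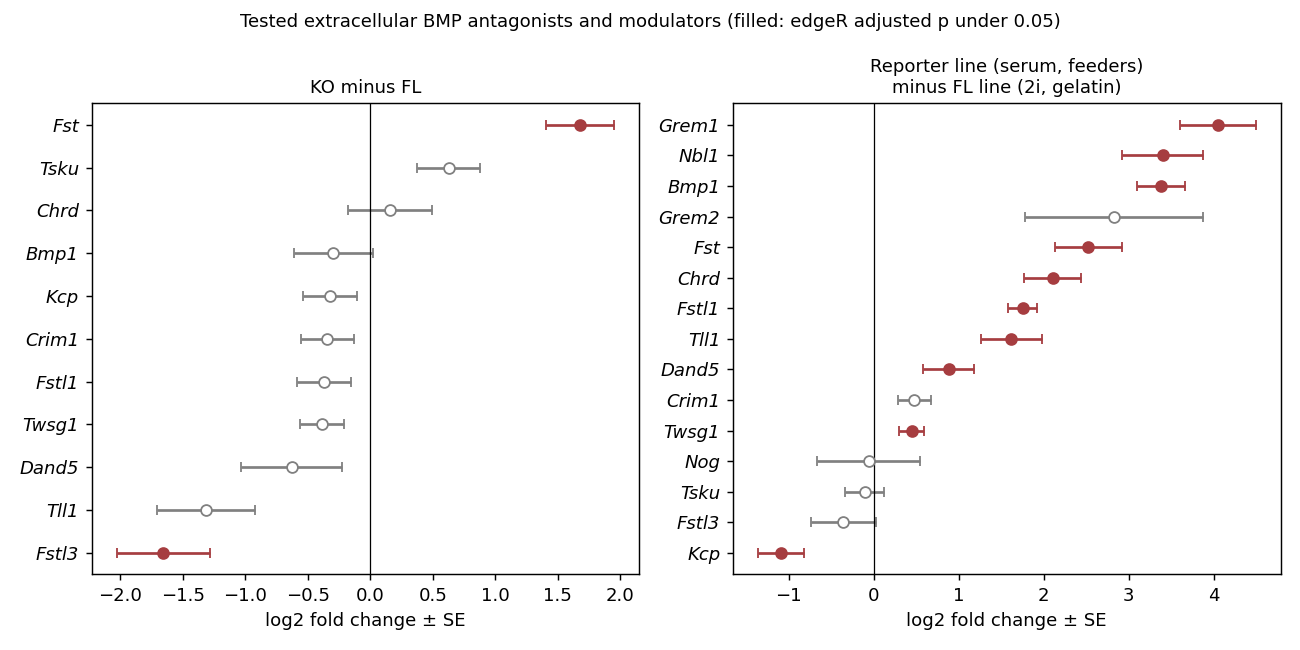
Log2 fold change with SE (horizontal axis) of each tested extracellular BMP antagonist or modulator (vertical axis) for KO against FL (left, 11 genes) and for the reporter line against FL (right, 15 genes). Filled points have an edgeR adjusted p under 0.05: Fst higher and Fstl3 lower on the left, 9 higher and 1 lower on the right.

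Of 23 tested ligands and receptors 13 were higher and 1 lower, with a median of 0.92. Those with the smallest p were Bmp4 (2.97-fold), Bmpr2 (2.16-fold), Inhbb (2.49-fold), Bambi, Acvrl1 (3.12-fold), Bmp7 (2.16-fold) and Acvr2b (1.49-fold), and the embryonic ligand gene Gdf3, which was 1.91-fold lower. Acvr2b had an adjusted p = 0.056 without FL replicate 2. Of 20 tested target and feedback genes 9 were higher and 3 lower. Id1 (5.29-fold), Id2 (4.78-fold), Id3 (3.26-fold) and the inhibitory Smad7 (1.78-fold) were among the higher ones, and Smad9 was lower (log2 fold change -3.06 ± 0.55, SE, and -1.86 without FL replicate 1). The other lower genes were Gata3 (5.42-fold, edgeR adjusted p = 0.0219) and Smad6, also an inhibitory Smad gene (1.82-fold, edgeR adjusted p = 0.0318). Of 8 tested Msx, Dlx and related homeobox genes, Dlx4, Dlx3 and Dlx1 were higher, each at 1.24 CPM or less in every library. Dlx3 lost its call without collection 2 or FL replicate 2, and Dlx1 without collection 2, collection 3 or FL replicate 2.

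The genes most like each member over the 12 libraries were found by the root mean square difference of log2 CPM centred per gene, among 13663 protein-coding genes. This is a description, and the 12 libraries share lines and collections. For Bambi they were Topors, Cdc42ep4 and the inhibitory Smad gene Smad7, at 0.13 each, against a median of 0.57 for all candidates. For Fst they were Flrt3 (0.35), Axl (0.37) and Shisa3 (0.41), against a median of 1.02. Flrt3, a membrane protein of fibronectin and leucine-rich repeats, stood at 7.38 CPM in the reporter libraries, 1.78 in FL and 3.29 in KO on average, and the receptor kinase gene Axl at 7.65, 1.7 and 4.02. For Msx2 they were Hmgn3 (0.36), Tmem181a (0.40) and the DM-domain factor gene Dmrt3 (0.40), against a median of 0.91. For Chrd they were Fndc4, Lpcat2 and Ikbkb (0.26 to 0.28, median 1.07), for Grem1 Egr4, Apba2 and Car4 (0.50 to 0.58, median 2.27), and for Msx1 Pclo, Tuba8 and Tubb3 (0.38 to 0.42, median 0.67). Nog had 10 or more counts in fewer than 3 libraries and was not compared.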

How the data were processed

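Total RNA libraries were made with a strand-marking kit after ribosomal RNA removal, per the labels' protocols. The submitters' processing notes name the aligner STAR 2.4.1d, the counter featureCounts 1.4.6, CASAVA 1.8.2, FastQC 0.11.3, DESeq2 1.6.3 and the builds mm10 and GRCm38.p4. Neither the annotation release nor how strand was used in counting is stated there or in the labels.

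The authors deposited whole-number counts for 39179 genes and a TPM table with gene symbols, used here as a per-length signal. Tested on the files, each deposited TPM value is proportional, within a library, to the count plus 1 divided by a fixed length (largest relative deviation 9.77e-15). The TPM table holds 39032 lines for 38310 genes, and 869 counted genes are not in it.

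Counts were fitted with edgeR 4.0.16 (R 4.3.3) by quasi-likelihood with TMM scaling, the filterByExpr filter (minimum count 10, minimum total 15), Benjamini-Hochberg adjustment over all tested genes and a threshold of 0.05. The reporter fit used the 6 reporter libraries with the collection as a block. The KO fit used 2 FL and 4 KO libraries with no block, and the culture fit 3 collection sums against 2 FL libraries. In the reporter pairs, which the series' design text describes as collected together, deviations from the group means correlated at 0.606, 0.444 and 0.377 within pairs and at -0.443 to 0.109 between them. Where nothing says that libraries came from separate cultures, p-values measure only the spread between these libraries, which may be technical.

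Library totals of 25862573 to 37319846 counts put the level of 3 counts at 0.0814 to 0.113 CPM. The SE of an edgeR value is its absolute log2 fold change divided by the square root of the quasi-likelihood F statistic. Intervals of ± 2 SE use this SE.

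All 7 genes were named in every comparison, with up to 8 called genes per pathway list by smallest p and the 3 genes most like each member. In the culture comparison the lower genes Gata3 and Smad6 were named as well. Members and lists were chosen with earlier results of these data known. Alternatives were DESeq2 1.42.0, RLE scaling, other filters, limma 3.58.1 on log2 of the deposited TPM plus 1 or plus 0.1, the replicate block, all 12 libraries in 1 fit, leaving out each library or pair, and each reporter fraction alone. Promoter sequences and their coordinates are from RefSeq (GRCm38.p6), and gene coordinates from GENCODE M21.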

Additional observations from a re-analysis of the deposited data

Results flagged for a closer look

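Chrd in KO replicate 2 stood at 0.842 CPM, while the other 3 KO libraries lay between 1.42 and 1.46 CPM. Its gap to the nearest of them was 0.941 of the range of the group, above Dixon's 95% critical value for 4 samples. The 7 genes were examined in this group of 4, and chance marks about 1 in 20 such groups. The level of FL replicate 2, 0.868 CPM, was close to that of KO replicate 2. The cause was not tested.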

How the results depend on the processing

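Among the 7 genes, the reporter comparison called 0 under edgeR and every alternative run (0 to 0 with a pair left out), where DESeq2 gave an adjusted p to Bambi alone. Among these genes Bambi was the only one at an unadjusted p under 0.05 in the reported fit, beside 2817 of all 15435 genes tested. The KO comparison called 2 (Fst and Msx2) and again 2 with DESeq2, RLE scaling, no count filter or all 12 libraries. It called 1 with a filter at 1 CPM, which removed Msx2, 1 with limma on log2(TPM + 1) (Msx2), 1 with a mean TPM of at least 1 as well (Fst, with Msx2 not tested), 0 with limma on log2(TPM + 0.1), and 0 to 1 with a library left out. With the replicate number as a block edgeR called 0 (Fst 1.75, adjusted p = 0.105, and Msx2 -2.05, adjusted p = 0.181). In that fit KO replicates 3 and 4 have no FL partner, so the difference rests on replicates 1 and 2 of each group. The labels do not pair these numbers (correlations 0.2 and -0.349). FL replicate 1 correlated at 0.2, 0.349, -0.314 and -0.277 with KO replicates 1 to 4. The deviations of 2 FL libraries from their mean mirror each other, so FL replicate 2 has the same values with the sign turned by construction. No line was assigned from these correlations. The culture comparison called 4 of 7 throughout (4 to 4 with a collection left out), except 2 with limma and a mean TPM of at least 1, where Grem1 and Chrd were not tested. The replicate block also gave 4, but it pairs libraries of separate experiments by number and leaves collection 3 without an FL partner. Over all genes the KO comparison called 801, 1508 with DESeq2, 360, 136 and 198 with limma on log2(TPM + 1), log2(TPM + 0.1) and mean TPM of at least 1, and 0 with the replicate block (2589 at an unadjusted p under 0.05). It called 0 without FL replicate 1 (1948 unadjusted), 142 without FL replicate 2, 236 without KO replicate 3 and 215 without KO replicate 4. The reporter comparison called 459, 1010 with no count filter, 2225 without pair 1, 200 without pair 3, 42 with limma on log2(TPM + 0.1), and 0 with the other limma fits (4189 and 2679 unadjusted), with no replicate block (343) or with all 12 libraries (516). The culture comparison called 8507, and 5361 and 5376 without FL replicate 1 or 2. Signs changed for values that were never called. In the reporter comparison these were Grem1 (0.003 with limma on log2(TPM + 1), both filters), Chrd (-0.006 to 0.23 with a pair left out, negative without pair 2) and Msx2 (-0.59 to 0.093, positive without pair 3). In the KO comparison it was Chrd (-0.019 with the replicate block, and -0.179 to 0.574 with a library left out, negative without FL replicate 2). In the culture comparison these were Msx1 (-0.347 to 0.041 with a library left out, positive without collection 1, and 0.194 with BRE-negative libraries alone) and Nog (-0.115 to 0.065, positive without collection 3). The order of the 4 groups was the same in TPM as in CPM for 5 of 7 genes. The cause of these changes was not tested. Depth limits Nog, Grem1 in FL and KO, and the Msx genes.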
